A study of Oryctolagus cuniculus with 30 samples.

Results

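Collagen chain genes, which encode the chains of every collagen type, were followed in injured and uninjured rabbit vocal folds. They were taken as all rows of the gene table whose symbol is COL, a number, A and a number. This gave 43 genes of 31346. The rule reads symbols alone, but it was set with earlier results of these data known. They comprised 10 fibrillar chains, 6 chains of the basement membrane network, 10 fibril-associated chains (FACIT, collagens that sit on the surface of fibrils), 5 beaded filament chains and 4 transmembrane chains. The rest were 2 multiplexins, 3 short-chain network chains, the anchoring fibril chain and 2 others. COL5A1 and COL6A4 were not analysed here.

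mRNA was sequenced from dissected mucosa of the vocal folds in 15 rabbits (New Zealand white), 3 animals to a group, with a library from each of the 2 folds of every animal (30 libraries). In 4 of the 5 groups the superficial mucosa of both folds had been stripped. Of these, the VFLP (man), VFLP (au) and Col1 groups received 20 uL in each fold 7 days later, of the materials so labelled, and the injury only group received no injection. VFLP stands in the series title for hydrogels derived from vocal fold lamina propria, Col1 is type I collagen, and the labels do not spell out man and au. In the injured groups the larynges were collected 28 days after treatment. The labels do not give the day from which these 28 days run in injury only. Time since injury may therefore differ between injury only and the material groups. Control animals had neither injury nor injection, and no time is listed for them. The title names fibrosis of injured folds as the subject, and the comparisons below ask how collagen RNA stood in each material group against injury only and against control.

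Collagens are trimers that assemble outside the cell into fibrils, networks or filaments, according to the class of their chains. In vocal folds, types I and III form the interstitial fibrils of the lamina propria, type VI makes a fine filament mesh around cells, and type IV networks with types VII, XV, XVII and XVIII lie at or near basement membranes. Scarring of the lamina propria is generally described as a change in amount and order of the interstitial fibrils. RNA levels do not measure deposited protein, and in bulk tissue fewer cells of a type cannot be told apart from less RNA per cell.

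Libraries held 14166322 to 31933788 gene reads. Levels are CPM, reads of a gene per 1e6 gene reads after TMM scaling, with both folds of an animal summed, and 3 values for a group are those of its animals 1, 2 and 3. CPM does not account for gene length, so levels of different genes are not compared. Read ratios of 2 genes are set side by side between groups only. Where groups are said not to overlap, this describes their animals and is no test. The share of all genes that separate in this way was not counted. All material libraries belong to batch D and all control libraries to batch C. Injury only has 5 libraries in batch C and the right fold of animal 1 in batch D. A list of skeletal muscle markers (20 of 25 found) was higher in every control animal than in every other animal, while the left fold of control animal 1, at 14670 CPM, lay within the range of the injury only and VFLP (au) libraries. With both folds summed, the list came to 609.9, 3916 and 1903 CPM in VFLP (man) animals, 13480, 5651 and 11770 CPM in VFLP (au), 6411, 8284 and 2752 CPM in Col1, 8774, 17450 and 20980 CPM in injury only and 48730, 112600 and 65880 CPM in control. Fibroblast markers (12 of 12 found) summed to 504, 487 and 422 CPM in VFLP (man), 1010, 769.5 and 751 CPM in VFLP (au), 588, 340.0 and 890.5 CPM in Col1, 942, 1252 and 797 CPM in injury only and 1826, 3397 and 2904 CPM in control. The labelled mucosa was checked with basal squamous epithelium markers (9 of 10 found), whose sum ranged over 3411 to 4167 CPM in VFLP (man), 3123 to 4490 CPM in VFLP (au), 3294 to 4331 CPM in Col1, 2838 to 3322 CPM in injury only and 1993 to 3789 CPM in control, so that every group held it. The part of these markers in the results below was not tested.

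**Figure D1:**
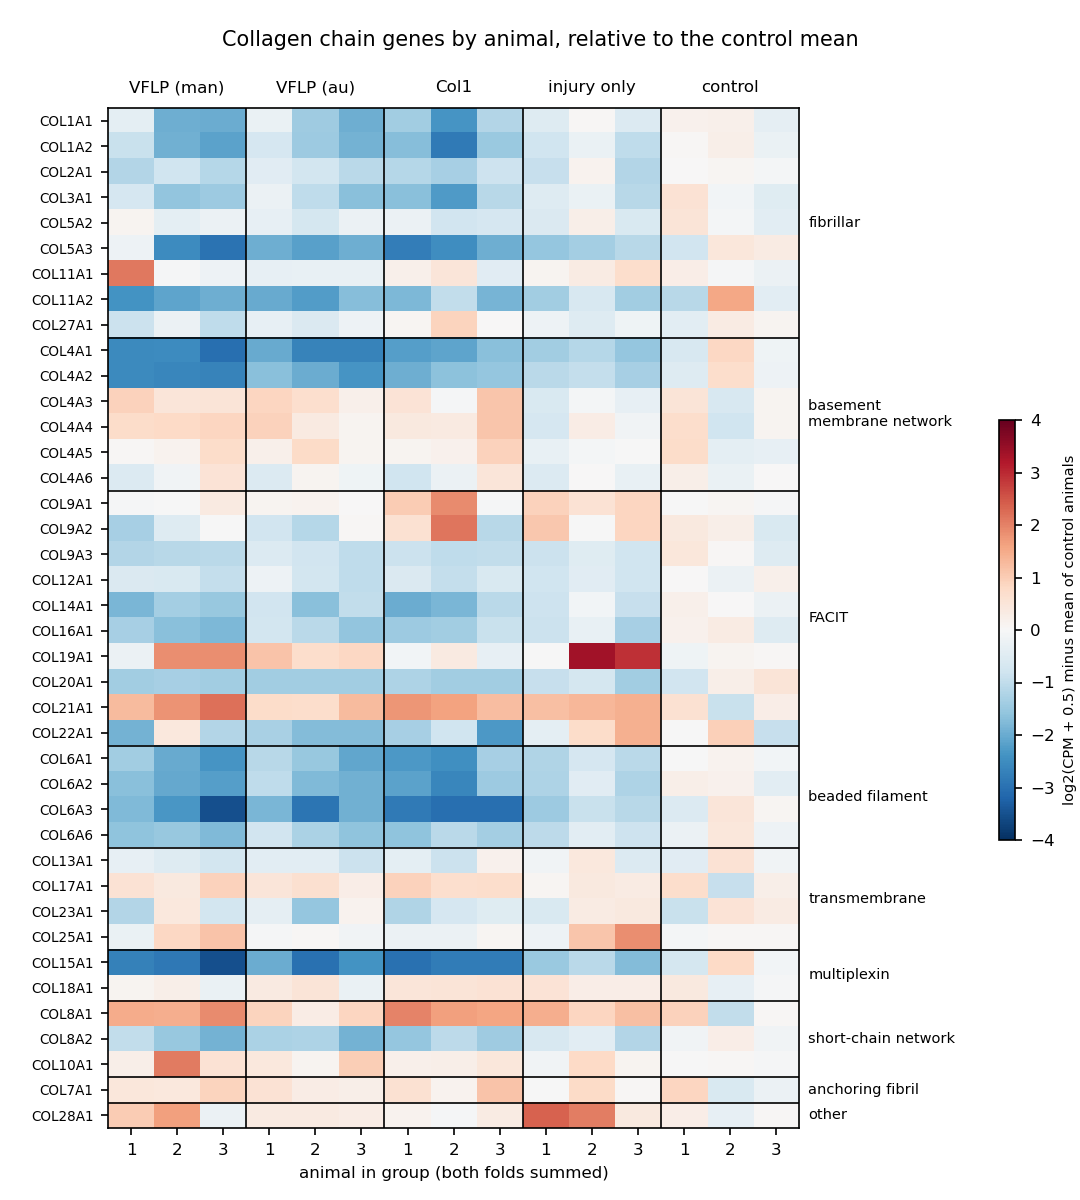
The 40 collagen chain genes with enough reads to test (rows, by class) in the 15 animals (columns, by group), as log2(CPM + 0.5) minus the mean of the 3 control animals, on a colour scale from -4 to 4. The COL4A1, COL4A2, COL15A1 and COL6A1 to COL6A3 rows are blue in all VFLP (man), VFLP (au) and Col1 animals, while COL21A1 is red in those animals and in injury only.

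Against control, most chain genes called in the material groups were lower. Of the 40 chain genes tested, 3 rose and 17 fell in VFLP (man) (edgeR quasi-likelihood test, adjusted p under 0.05), with 16.7% and 20.5% of all 17770 genes tested higher and lower. In VFLP (au), 0 rose and 16 fell, with 10.8% of all genes higher and 16.7% lower. In Col1, 3 rose and 19 fell, with 13.5% and 18.6% of all genes higher and lower. In injury only, 3 rose and 4 fell, with 8.33% and 13.7% of 17815 genes higher and lower. Neither injury only count exceeds those shares. The median log2 fold change of the chain genes was -0.86 in VFLP (man), -0.91 in VFLP (au), -0.83 in Col1 and -0.39 in injury only. Over all genes tested the medians were 0.13, 0.11, 0.12 and 0.02 in the same comparisons. These 4 comparisons share the control animals and are given side by side. The lower calls of each material group include COL20A1, which reached the test only through its control reads.

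Set against injury only, 1 chain gene was called in VFLP (man), COL4A2, and it was lower. Of all genes, 0.0732% were higher and 0.99% lower in that comparison. In VFLP (au) and in Col1 against injury only, 0 chain genes were called by edgeR, where 0.0% and 0.0% of all genes were called, while 10 and 16 chain genes, and 2289 and 2530 of all 17770 genes, had an unadjusted p under 0.05. DESeq2 called 1 and 4 chain genes there, with 1.19% and 2.14% of all genes called. Between materials, 0 chain genes were called in VFLP (man) against Col1 (0.0% of all genes), in VFLP (au) against Col1 (0.0%) or in VFLP (man) against VFLP (au) (0.0% higher and 0.0505% lower). In those 3 comparisons 8, 4 and 5 chain genes had an unadjusted p under 0.05, as did 1832, 829 and 1489 of all 17815 genes. Over the 5 groups at once, 19 chain genes differed, with 28.4% of all genes called.

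Material and batch cannot be told apart in the comparisons with control or injury only, except through 1 injury only library. With a batch term, which rests on that library, 1, 0 and 0 chain genes were called in VFLP (man), VFLP (au) and Col1 against control, and 0 in each against injury only. Of all genes, 0.163% were then called in VFLP (man) against control and 0.0% in the other 5 of these comparisons. The sign was kept by 20 of 20 VFLP (man) calls, 14 of 16 VFLP (au) calls and 20 of 22 Col1 calls, in some cases at a value near 0, as for COL6A6 (-0.15) and COL20A1 (-0.44) in VFLP (man) and COL11A2 (-0.13) and COL9A3 (-0.27) in Col1. Comparisons of injury only with control and between materials carried a batch term from the outset. In injury only against control the batch D fold then carries no weight. Those fold changes use the left fold alone of injury only animal 1, while its CPM values sum both folds. With left folds alone the calls against control numbered 15, 7, 0 and 0 in VFLP (man), VFLP (au), Col1 and injury only, and with right folds alone 20, 14, 25 and 13. Without control animal 2 they numbered 17, 11, 18 and 3. The right-fold fit of injury only carried a batch term, so its animal 1 had no weight there. The other fits by side against control carried none, so these counts come from unlike fits.

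**Figure D2:**
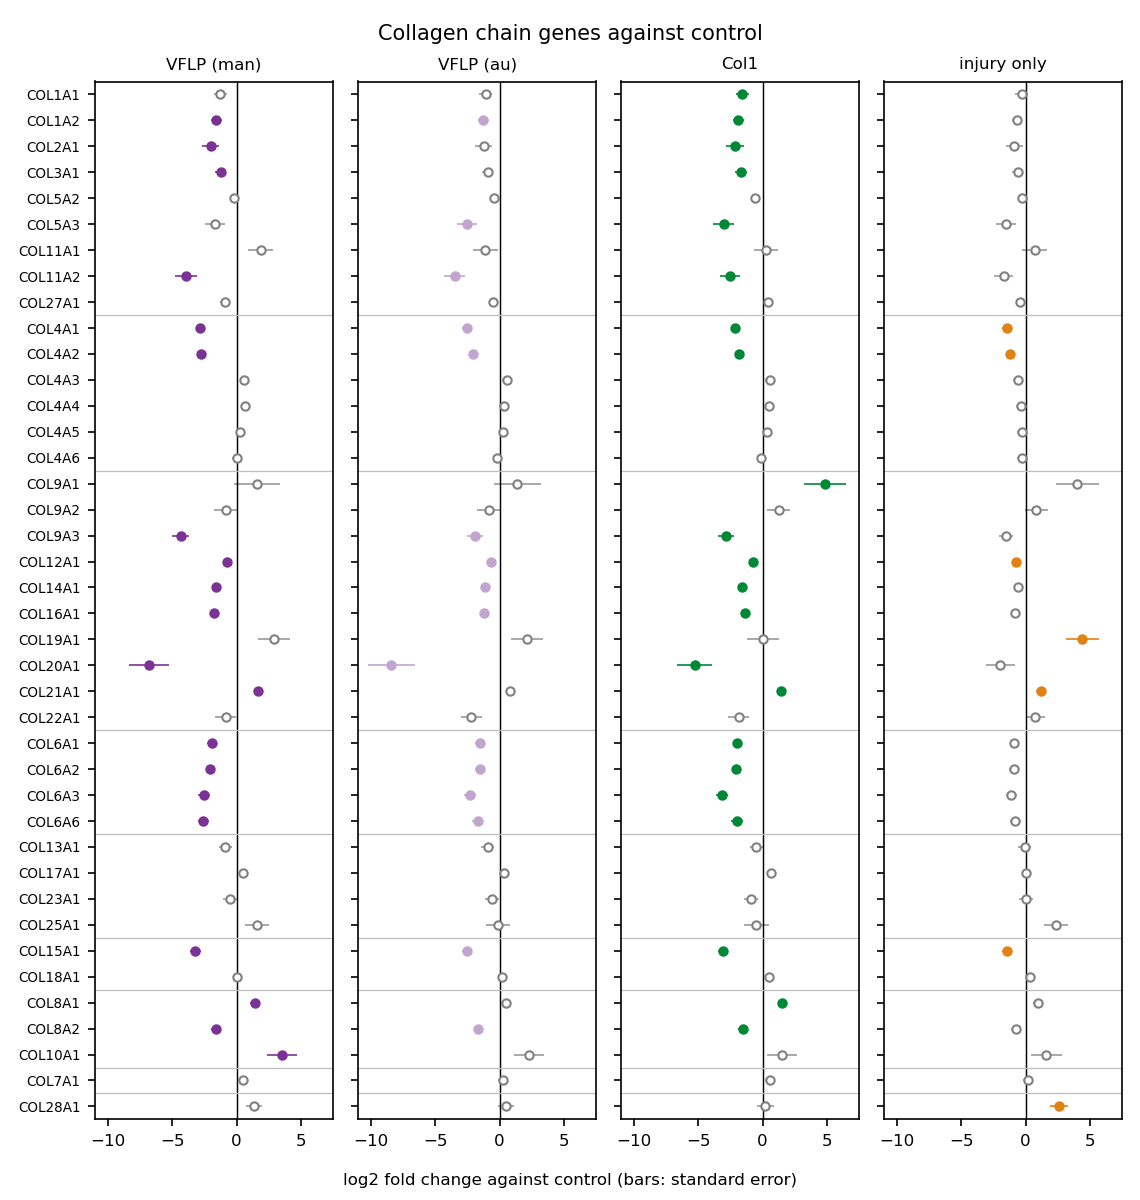
Log2 fold change of each tested chain gene against control (x axis, bars are the standard error) in VFLP (man), VFLP (au), Col1 and injury only, with genes down the page by class and grey lines between classes. Filled points passed an adjusted p of 0.05 and open grey points did not. Fitted values of COL20A1 and COL9A1, with 0 to 3 reads in some groups, depend on the prior count and are no bound. Filled points lie mostly left of 0 in the 3 material panels, with 17, 16 and 19 lower calls.

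Fibrillar chains, which form the load-bearing interstitial fibrils, were called lower for 4 of 9 tested in VFLP (man), 3 of 9 in VFLP (au) and 6 of 9 in Col1 against control, and for 0 of 9 in injury only. Of all genes 20.5%, 16.7%, 18.6% and 13.7% were lower in the same comparisons. Type I collagen is built from COL1A1 and COL1A2. COL1A1 had 121, 40.3 and 39.2 CPM in VFLP (man) animals, 130.3, 58.3 and 40.2 CPM in VFLP (au) and 59.6, 30.5 and 69.5 CPM in Col1. Injury only animals had 109, 164 and 107 CPM and control animals 179, 179 and 122 CPM. Animal 1 was the highest of its group in both VFLP groups, and the ranges of the VFLP (au) and control animals overlapped while those of Col1 and control did not. COL1A1 fell in Col1 (log2 fold change -1.59 ± 0.51, adjusted p = 0.0328), and its values in VFLP (man), VFLP (au) and injury only were -1.26 ± 0.51, -1.07 ± 0.51 and -0.32 ± 0.50 with adjusted p of 0.0692, 0.135 and 0.688. The Col1 call was lost without Col1 animal 1 (adjusted p = 0.0690), Col1 animal 2 (0.105), control animal 1 (0.0621) or control animal 2 (0.0837).

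COL1A2, the other type I chain, had 168, 83.1 and 71.6 CPM in VFLP (man) animals, 199, 114 and 85.6 CPM in VFLP (au) and 97.6, 44.0 and 113 CPM in Col1. Injury only animals had 183, 260.5 and 155 CPM and control animals 327, 369 and 261 CPM, so that every animal of each injured group lay below every control animal. For injury only this rests on a near tie, 260.496 CPM in its animal 2 against 260.562 CPM in control animal 3. It fell in VFLP (man) (-1.57 ± 0.42, adjusted p = 0.0126), VFLP (au) (-1.26 ± 0.42, 0.0424) and Col1 (-1.91 ± 0.43, 0.00557), a 2.96-fold, 2.40-fold and 3.76-fold lower level. The call was lost without VFLP (man) animal 3 (adjusted p = 0.0523) and, in VFLP (au), without any 1 of 5 animals (adjusted p of 0.0541 to 0.124). In injury only COL1A2 stood at -0.66 ± 0.42 (adjusted p = 0.271). The ratio of COL1A1 to COL1A2 reads was 0.583 ± 0.120 in VFLP (man), 0.546 ± 0.0966 in VFLP (au), 0.640 ± 0.0462 in Col1, 0.640 ± 0.0502 in injury only and 0.500 ± 0.0414 in control (mean ± SD, n = 3 animals, not tested).

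COL3A1, the single chain of type III collagen, which forms thin reticular fibrils, had 273, 145 and 156 CPM in VFLP (man) animals, 370.0, 216 and 136 CPM in VFLP (au) and 135, 88.7 and 199.8 CPM in Col1. Injury only animals had 303, 361 and 202 CPM and control animals 649.6, 399 and 312 CPM. It fell in VFLP (man) (-1.25 ± 0.43, adjusted p = 0.0378) and Col1 (-1.69 ± 0.43, 0.0112), where no animal reached the lowest control value, and stood at -0.92 ± 0.43 (0.126) in VFLP (au) and -0.60 ± 0.43 (0.337) in injury only, where ranges overlapped control. In VFLP (man) the call was lost without VFLP (man) animal 2 or 3 or control animal 1 or 2 (adjusted p of 0.0599 to 0.128). COL5A2, a type V chain that takes part in fibril nucleation, was called in none of these comparisons and ranged over 37.9 to 54.1, 30.4 to 42.0, 28.9 to 42.0, 32.3 to 58.2 and 36.8 to 70.7 CPM in VFLP (man), VFLP (au), Col1, injury only and control.

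COL5A3, a further type V chain, had 5.29, 0.662 and 0.367 CPM in VFLP (man) animals, 1.23, 0.983 and 1.22 CPM in VFLP (au) and 0.492, 0.697 and 1.23 CPM in Col1, against 1.78, 2.10 and 2.63 CPM in injury only and 3.45, 8.59 and 7.88 CPM in control. Levels fell in VFLP (au) (-2.53 ± 0.81, adjusted p = 0.0352) and Col1 (-3.03 ± 0.82, 0.0147). In VFLP (man) animal 1 lay inside the control range, and the value was -1.65 ± 0.78 (0.112). The VFLP (au) call was lost without any 1 of 5 animals (adjusted p of 0.0756 to 0.104), and the Col1 call without Col1 animal 1 (0.0575).

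The cartilage chains of this class had few reads. COL2A1, the type II chain of cartilage fibrils, had 0.190, 0.391 and 0.207 CPM in VFLP (man), 0.648, 0.445 and 0.244 CPM in VFLP (au), 0.208, 0.120 and 0.384 CPM in Col1, 0.330, 1.23 and 0.188 CPM in injury only and 1.07, 1.14 and 0.971 CPM in control. Against control it fell in VFLP (man) (-1.999 ± 0.66, adjusted p = 0.0323) and Col1 (-2.14 ± 0.67, 0.0289). Each of these calls was lost without any 1 of 5 animals in VFLP (man) (adjusted p of 0.0539 to 0.0971) and any 1 of 4 in Col1 (0.0519 to 0.0927). COL11A2, a type XI chain that joins type II fibrils, had 0.138, 0.286 and 0.367 CPM in VFLP (man), 0.334, 0.223 and 0.537 CPM in VFLP (au), 0.473, 1.20 and 0.425 CPM in Col1, 0.776, 1.67 and 0.775 CPM in injury only and 1.05, 9.32 and 1.999 CPM in control. Control animal 2 was far above the other two. COL11A2 fell in VFLP (man) (-3.94 ± 0.83, 0.00298), VFLP (au) (-3.49 ± 0.81, 0.00894) and Col1 (-2.55 ± 0.77, 0.0247). Without control animal 2 the values were -2.54 in VFLP (man), -2.10 in VFLP (au) and -1.15 in Col1, the last no longer called (adjusted p = 0.212), and the Col1 call was also lost without Col1 animal 1 (0.0840) or 3 (0.0872). With a batch term the values were -1.52, -1.07 and -0.13 in VFLP (man), VFLP (au) and Col1, none of them called. A list of other cartilage markers (11 of 12 found) summed to 36.2 to 65.5 CPM in VFLP (man), 40.0 to 72.3 CPM in VFLP (au), 59.5 to 97.6 CPM in Col1, 69.7 to 86.6 CPM in injury only and 92.5 to 162 CPM in control. COL11A1, the partner of COL11A2, and COL27A1, a minor fibrillar chain, were called in none of the comparisons of 2 groups, and COL24A1 had 95 reads in all and was not tested.

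**Figure D3:**
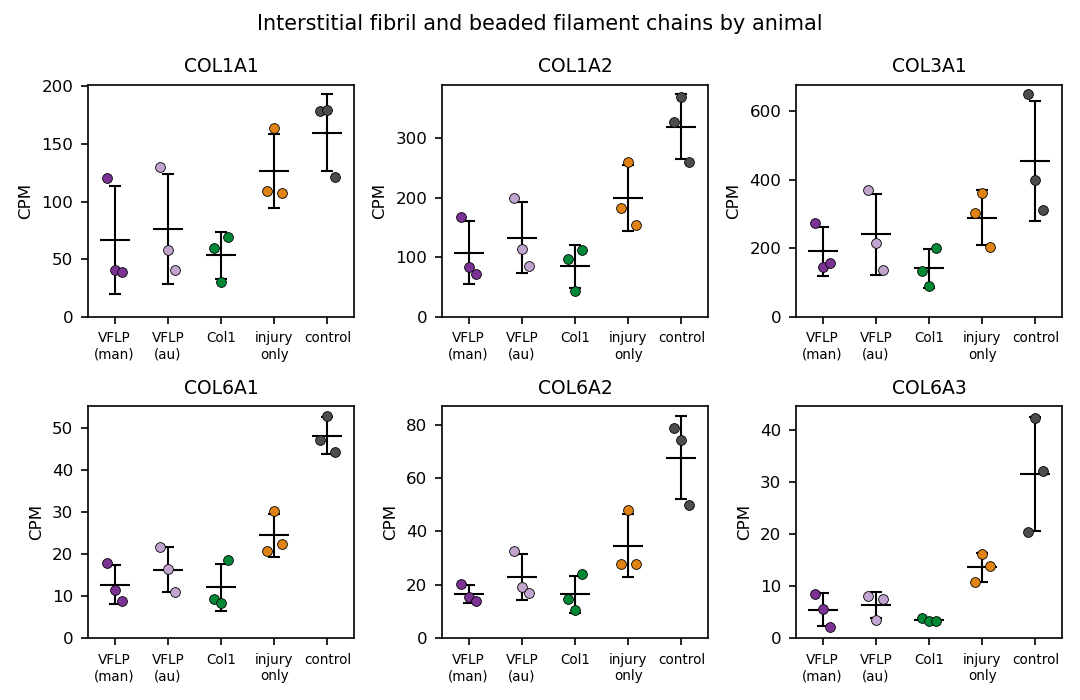
CPM of 3 fibrillar and 3 beaded filament chain genes (y axis from 0) in the VFLP (man), VFLP (au), Col1, injury only and control groups; points are animals, horizontal marks the mean and bars the SD (n = 3). All COL6A1, COL6A2 and COL6A3 points of the injured groups lie below the control points, and animal 1 of both VFLP groups is the highest of its group for COL1A1, COL1A2 and COL3A1.

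Beaded filament chains fell as a class in the material groups, with 4 of 4 tested called lower in VFLP (man), VFLP (au) and Col1 against control and 0 of 4 in injury only. Lower calls took 20.5%, 16.7%, 18.6% and 13.7% of all genes in these comparisons. Type VI collagen forms beaded microfilaments that link cells to the interstitial matrix, and COL6A1, COL6A2 and COL6A3 are its usual chains. COL6A1 had 17.9, 11.4 and 8.94 CPM in VFLP (man) animals, 21.8, 16.5 and 10.9 CPM in VFLP (au), 9.38, 8.44 and 18.7 CPM in Col1, 20.8, 30.2 and 22.6 CPM in injury only and 47.3, 53.0 and 44.5 CPM in control. COL6A2 had 20.2, 15.5 and 13.9 CPM in VFLP (man), 32.7, 19.1 and 17.1 CPM in VFLP (au), 14.7, 10.4 and 24.1 CPM in Col1, 27.96, 48.2 and 27.6 CPM in injury only and 78.7, 74.4 and 49.8 CPM in control. COL6A3 had 8.54, 5.69 and 2.17 CPM in VFLP (man), 8.15, 3.58 and 7.59 CPM in VFLP (au), 3.82, 3.29 and 3.32 CPM in Col1, 10.8, 16.2 and 13.9 CPM in injury only and 20.4, 42.3 and 32.2 CPM in control. For each of these 3 chains all 12 injured animals lay below all 3 control animals.

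Log2 fold changes of COL6A1, COL6A2 and COL6A3 were -1.92 ± 0.35, -2.03 ± 0.36 and -2.53 ± 0.46 in VFLP (man), with adjusted p of 0.00135, 0.00105 and 0.00128. In VFLP (au) they were -1.56 ± 0.35, -1.56 ± 0.35 and -2.30 ± 0.46 (0.00765, 0.00806 and 0.00429). In Col1 they were -1.99 ± 0.35, -2.04 ± 0.36 and -3.18 ± 0.48 (0.00163, 0.00152 and 0.000669). COL6A3 was thus 9.09-fold lower in Col1 than in control, and these 9 calls held with any 1 animal left out. In injury only the 3 chains stood at -0.90 ± 0.34, -0.93 ± 0.34 and -1.11 ± 0.43, with adjusted p of 0.0736, 0.0700 and 0.0853. The ratio of COL6A1 to COL6A2 reads averaged 0.755 ± 0.122 in VFLP (man), 0.723 ± 0.120 in VFLP (au), 0.741 ± 0.0916 in Col1, 0.729 ± 0.0952 in injury only and 0.736 ± 0.148 in control, differences smaller than the spread between animals. COL6A3 over COL6A1 averaged 0.406 ± 0.141 in VFLP (man), 0.429 ± 0.243 in VFLP (au), 0.325 ± 0.128 in Col1, 0.557 ± 0.0533 in injury only and 0.652 ± 0.194 in control (not tested).

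COL6A6, a chain that can take the place of COL6A3, had 0.380, 0.436 and 0.287 CPM in VFLP (man), 1.07, 0.612 and 0.366 CPM in VFLP (au), 0.378, 0.745 and 0.526 CPM in Col1, 0.776, 1.49 and 0.986 CPM in injury only and 1.74, 3.11 and 1.83 CPM in control. It fell in VFLP (man) (-2.58 ± 0.46, adjusted p = 0.00104), VFLP (au) (-1.69 ± 0.44, 0.0148) and Col1 (-2.01 ± 0.45, 0.00530). With a batch term its fitted value was -0.15 in VFLP (man) (adjusted p = 0.943), and it turned to 0.74 in VFLP (au) and 0.42 in Col1, none of them called. The VFLP (au) call was lost without VFLP (au) animal 2 (0.0560) or control animal 2 (0.0622). COL6A5 had 49 reads in all and was not tested.

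Basement membrane network chains fell into 2 sets. COL4A1 and COL4A2, the pair found in the type IV network of nearly all basement membranes, fell in every injured group against control, and 0 of the other 4 chains was called in any comparison. COL4A1 had 30.0, 30.7 and 21.4 CPM in VFLP (man), 43.6, 27.1 and 27.7 CPM in VFLP (au), 38.1, 40.7 and 55.3 CPM in Col1, 67.7, 79.8 and 60.3 CPM in injury only and 112, 314 and 158 CPM in control. COL4A2 had 12.4, 12.1 and 11.3 CPM in VFLP (man), 23.2, 18.7 and 14.4 CPM in VFLP (au), 19.3, 24.0 and 25.3 CPM in Col1, 35.8, 39.0 and 30.0 CPM in injury only and 52.8, 124 and 65.4 CPM in control. For both genes every animal of the 3 material groups lay below every injury only animal, and every injury only animal below every control animal. How many of all genes show this order was not counted. Control animal 2 was the highest control animal for both.

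COL4A1 was 7.10-fold lower than control in VFLP (man) (-2.83 ± 0.35, adjusted p = 0.000122), 5.93-fold in VFLP (au) (-2.57 ± 0.35, 0.000911), 4.35-fold in Col1 (-2.12 ± 0.34, 0.000951) and 2.78-fold in injury only (-1.47 ± 0.33, 0.0101). COL4A2 was 6.79-fold lower in VFLP (man) (-2.76 ± 0.29, 6.45e-05), 4.31-fold in VFLP (au) (-2.11 ± 0.28, 0.000906), 3.53-fold in Col1 (-1.82 ± 0.28, 0.000748) and 2.27-fold in injury only (-1.18 ± 0.28, 0.0117). These 8 calls held with any 1 animal left out. COL4A2 in VFLP (man) was the single call that a batch term kept, at -2.67 (adjusted p = 0.0467). Against injury only, COL4A2 was 2.93-fold lower in VFLP (man) (-1.55 ± 0.28, 0.0427) and stood at -0.90 ± 0.27 (0.354) in VFLP (au) and -0.61 ± 0.27 (0.338) in Col1. That call was lost without VFLP (man) animal 1 or 3 or injury only animal 2 or 3 (adjusted p of 0.0833 to 0.175) and with a batch term (-1.49, adjusted p = 0.87). COL4A1 against injury only stood at -1.34 ± 0.33 (0.0737) in VFLP (man), -1.08 ± 0.33 (0.354) in VFLP (au) and -0.63 ± 0.33 (0.389) in Col1.

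COL4A3, COL4A4, COL4A5 and COL4A6 build the type IV networks of selected basement membranes, among them those of kidney and, for COL4A5 and COL4A6, epidermis. COL4A4 ranged over 90.8 to 100.0 CPM in VFLP (man), 58.6 to 104 CPM in VFLP (au), 70.4 to 118 CPM in Col1, 33.9 to 66.9 CPM in injury only and 30.9 to 89.6 CPM in control. COL4A5 ranged over 61.6 to 99.1 CPM in VFLP (man), 64.6 to 102 CPM in VFLP (au), 64.4 to 112 CPM in Col1, 48.2 to 59.0 CPM in injury only and 45.2 to 99.0 CPM in control. Against control, log2 fold changes of these 4 chains ran from -0.58 ± 0.40 for COL4A3 in injury only to 0.67 ± 0.36 for COL4A4 in VFLP (man). Against injury only COL4A3 stood at 1.02 ± 0.35, 0.96 ± 0.35 and 0.98 ± 0.35 in VFLP (man), VFLP (au) and Col1, with every material animal above every injury only animal and adjusted p of 0.170, 0.358 and 0.291. The ratio of COL4A1 to COL4A5 reads was 0.487, 0.462 and 0.216 in VFLP (man) animals, 0.636, 0.265 and 0.428 in VFLP (au), 0.591, 0.608 and 0.492 in Col1, 1.40, 1.41 and 1.02 in injury only and 1.14, 6.94 and 3.32 in control. Every material animal thus had a lower ratio than every injury only and control animal. Gene length is not accounted for, so a ratio of 1 does not mean equal levels of both chains. The ratio was not tested. COL4A1 over COL4A2 averaged 2.29 ± 0.348, 1.75 ± 0.260, 1.95 ± 0.244, 1.98 ± 0.0833 and 2.35 ± 0.201 in VFLP (man), VFLP (au), Col1, injury only and control. Endothelial markers (12 of 12 found), of cells that make COL4A1 and COL4A2, summed to 115, 144 and 109.9 CPM in VFLP (man), 237, 126 and 163 CPM in VFLP (au), 228, 198 and 227 CPM in Col1, 272, 518 and 272 CPM in injury only and 299, 1146 and 522 CPM in control. Against control 12, 12, 8 and 3 of these 12 markers fell in VFLP (man), VFLP (au), Col1 and injury only, and 0 rose. Lower calls took 20.5%, 16.7%, 18.6% and 13.7% of all genes there. The part of these markers in the type IV values was not tested.

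**Figure D4:**
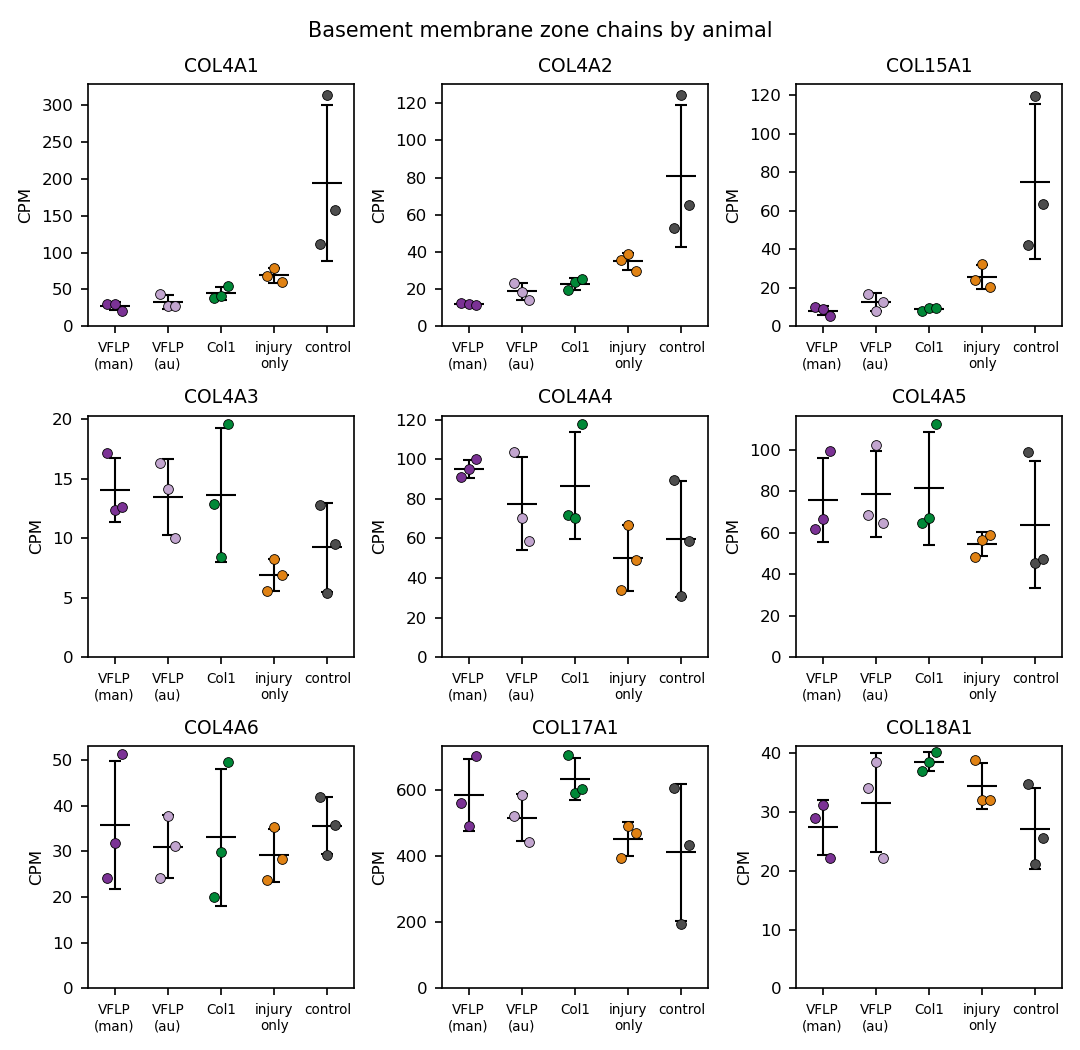
CPM of chain genes of the basement membrane zone (y axis from 0) by group; points are animals, horizontal marks the mean and bars the SD (n = 3). COL4A1, COL4A2 and COL15A1 are ordered materials, injury only, control with no overlap between injury only and control, while injury only and control overlap for COL4A3 to COL4A6, COL17A1 and COL18A1.

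The multiplexins, basement membrane collagens with interrupted helices, did not move together. COL15A1, a chain of the outer basement membrane zone of muscle fibres and capillaries, had 10.01, 9.03 and 5.47 CPM in VFLP (man), 17.0, 8.18 and 12.6 CPM in VFLP (au), 8.21, 9.40 and 9.35 CPM in Col1, 24.2, 32.4 and 20.4 CPM in injury only and 42.1, 119.9 and 63.6 CPM in control. It was 9.19-fold lower than control in VFLP (man) (-3.20 ± 0.40, adjusted p = 0.000126), 5.95-fold in VFLP (au) (-2.57 ± 0.39, 0.00129) and 8.36-fold in Col1 (-3.06 ± 0.40, 0.000400), calls that held with any 1 animal left out. It also fell in injury only (-1.46 ± 0.37, 0.0173), but not without control animal 2 (adjusted p = 0.0781), injury only animal 1 (0.0532) or injury only animal 3 (0.0614). Against injury only it stood at -1.65 ± 0.38 (0.0560) in VFLP (man), -1.02 ± 0.37 (0.355) in VFLP (au) and -1.51 ± 0.38 (0.267) in Col1, with every material animal below every injury only animal. COL18A1, the precursor of endostatin, had 29.0, 31.1 and 22.2 CPM in VFLP (man), 34.0, 38.5 and 22.2 CPM in VFLP (au), 37, 38.6 and 40.1 CPM in Col1, 38.9, 32.1 and 32.1 CPM in injury only and 34.7, 21.1 and 25.6 CPM in control and was called in none of the comparisons of 2 groups.

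Chains that fix epithelium to its basement membrane were called in none of the comparisons of 2 groups. COL17A1, a transmembrane collagen of hemidesmosomes in basal keratinocytes, had 561, 491 and 705 CPM in VFLP (man), 523, 586 and 444 CPM in VFLP (au), 708, 592 and 605 CPM in Col1, 396, 492.6 and 472 CPM in injury only and 608, 195 and 436 CPM in control. Its log2 fold changes against control were 0.51 ± 0.31, 0.33 ± 0.31, 0.62 ± 0.31 and 0.03 ± 0.33 in VFLP (man), VFLP (au), Col1 and injury only, with adjusted p of 0.212, 0.451, 0.144 and 0.957. COL7A1, which forms the anchoring fibrils below it, had 10.3, 10.1 and 14.2 CPM in VFLP (man), 11.2, 9.20 and 8.86 CPM in VFLP (au), 11.5, 8.27 and 17.0 CPM in Col1, 7.31, 13.0 and 7.70 CPM in injury only and 13.7, 4.61 and 6.22 CPM in control. Its values against control were 0.49 ± 0.39, 0.25 ± 0.39, 0.58 ± 0.39 and 0.17 ± 0.39 in VFLP (man), VFLP (au), Col1 and injury only, with adjusted p of 0.341, 0.657, 0.281 and 0.790. The other transmembrane chains, COL13A1, COL23A1 and COL25A1, were called in none of these comparisons either. COL25A1 ranged over 0.116 to 2.07 CPM in injury only and 0.165 to 0.228 CPM in control, a difference of 2.37 ± 0.93 (adjusted p = 0.0842).

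Among FACIT chains 1 rose and 5 fell of 10 in VFLP (man), 0 and 5 in VFLP (au), 2 and 5 in Col1 and 2 and 1 in injury only, all against control. Of all genes 16.7%, 10.8%, 13.5% and 8.33% were higher and 20.5%, 16.7%, 18.6% and 13.7% lower. The 1 that rose in VFLP (man) and the 1 that fell in injury only do not exceed those shares. COL20A1, which reached the test only through its control reads, is among the lower calls of each material group. COL12A1 and COL14A1 decorate type I fibrils. COL12A1 had 20.1, 19.6 and 15.5 CPM in VFLP (man), 26.0, 17.9 and 14.6 CPM in VFLP (au), 20.0, 15.4 and 19.6 CPM in Col1, 17.2, 21.8 and 17.2 CPM in injury only and 30.9, 25.9 and 34.6 CPM in control. Every VFLP (man), Col1 and injury only animal lay below every control animal, VFLP (au) animal 1 reached the control range, and COL12A1 fell against control in VFLP (man) (-0.73 ± 0.21, adjusted p = 0.0185), VFLP (au) (-0.65 ± 0.21, 0.0409), Col1 (-0.73 ± 0.21, 0.0205) and injury only (-0.72 ± 0.22, 0.0334). Without control animal 3 all 4 calls were lost (adjusted p of 0.0621 to 0.116), and each was lost without at least 1 injured animal too. COL14A1 had 32.2, 44.6 and 39.9 CPM in VFLP (man), 66.5, 35.7 and 57.2 CPM in VFLP (au), 28.8, 31.7 and 54.1 CPM in Col1, 63.9, 106 and 60.1 CPM in injury only and 133, 116 and 97.9 CPM in control. The gene fell in VFLP (man) (-1.57 ± 0.30, 0.00186), VFLP (au) (-1.12 ± 0.30, 0.0170) and Col1 (-1.59 ± 0.30, 0.00234), and injury only, whose animal 2 reached into the control range, stood at -0.58 ± 0.30 (0.178). The VFLP (au) call was lost without VFLP (au) animal 2 (0.0675).

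COL16A1, a FACIT of fibrillin microfibrils and collagen fibrils, had 5.84, 4.5 and 4.07 CPM in VFLP (man), 9.13, 7.03 and 4.83 CPM in VFLP (au), 5.33, 5.56 and 8.01 CPM in Col1, 8.201, 12.4 and 5.80 CPM in injury only and 17.6, 19.5 and 10.7 CPM in control. Levels fell in VFLP (man) (-1.73 ± 0.34, adjusted p = 0.00210), VFLP (au) (-1.19 ± 0.34, 0.0217) and Col1 (-1.34 ± 0.34, 0.0102). The VFLP (au) call was lost without VFLP (au) animal 2 or 3 or control animal 2 (adjusted p of 0.0629 to 0.0774). COL9A3, a chain of type IX collagen of cartilage, had 0.0173, 0.0301 and 0.0479 CPM in VFLP (man), 0.293, 0.186 and 0.0732 CPM in VFLP (au), 0.132, 0.0721 and 0.0809 CPM in Col1, 0.136, 0.330 and 0.164 CPM in injury only and 1.096, 0.685 and 0.314 CPM in control, on 6, 27, 14, 28 and 79 reads. Against control it fell in VFLP (man) (-4.35 ± 0.69, 0.000510), VFLP (au) (-1.91 ± 0.59, 0.0320) and Col1 (-2.84 ± 0.63, 0.00511). With a batch term the values were -1.78 in VFLP (man), 0.66 in VFLP (au) and -0.27 in Col1, none of them called, and the VFLP (au) call was lost without any 1 of 4 animals (adjusted p of 0.0722 to 0.115). COL9A1, its partner chain, rose in Col1 (4.89 ± 1.64, 0.0379), on 88 reads against 2 reads in control, a ratio of 32.2 with a 95% counting interval of 8.65 to 270.07. In injury only it had 56 reads, a ratio to control of 21.6 with an interval of 5.70 to 182.61, and 0.283 to 0.485 CPM, above every control animal (0 to 0.0457 CPM), without being called (adjusted p = 0.0976). The Col1 animals ranged over 0 to 1.42 CPM and overlapped control, and the call was lost without any 1 of 5 animals (adjusted p of 0.0601 to 0.129). COL9A2 was called in none of these comparisons.

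COL21A1, a FACIT-like chain of vessel walls, was among the few that rose. It had 219, 320.3 and 428 CPM in VFLP (man), 154, 151 and 222 CPM in VFLP (au), 310.2, 281 and 218 CPM in Col1, 213, 229 and 249 CPM in injury only and 141, 49.6 and 110.4 CPM in control, with every injured animal above every control animal. It rose in VFLP (man) (1.68 ± 0.34, adjusted p = 0.00238), Col1 (1.43 ± 0.34, 0.00730) and injury only (1.17 ± 0.34, 0.0283), and stood at 0.81 ± 0.33 (0.0886) in VFLP (au). The injury only call was lost without any 1 of 5 animals (adjusted p of 0.0566 to 0.09), and without control animal 2 the value was 0.81. COL19A1, a scarce FACIT of basement membrane zones, had 0.0692, 1.94 and 1.93 CPM in VFLP (man), 0.982, 0.594 and 0.708 CPM in VFLP (au), 0.132, 0.361 and 0.0405 CPM in Col1, 0.174, 6.48 and 4.58 CPM in injury only and 0.103, 0.228 and 0.200 CPM in control. It rose in injury only (4.42 ± 1.31, 0.0312) through animals 2 and 3, while animal 1 lay inside the control range, and the call was lost without any 1 of 5 animals (0.0612 to 0.0975), with a value of 3.77 without injury only animal 2. COL22A1, found at tissue junctions such as that of muscle and tendon, had 0.726, 5.58 and 1.52 CPM in VFLP (man), 1.34, 0.872 and 0.879 CPM in VFLP (au), 1.32, 2.14 and 0.425 CPM in Col1, 2.95, 7.10 and 11.7 CPM in injury only and 3.99, 8.31 and 1.88 CPM in control. It was called in none of the comparisons of 2 groups.

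COL20A1, a little-studied FACIT, was near the limit of detection. It had 1 read in VFLP (man), 0 in VFLP (au), 3 in Col1, 23 in injury only and 84 in control, or 0.194, 0.307 and 0 CPM in injury only animals and 0.269, 1.05 and 1.37 CPM in control animals. COL20A1 reached the test only through its control reads, 13, 23 and 48 in control animals 1, 2 and 3. Its lower calls are therefore no support for a fall. They came against control in VFLP (man) (adjusted p = 0.00611), VFLP (au) (0.00858) and Col1 (0.0148). The level was 149-fold lower in VFLP (man) with a 95% counting interval of 26.0 to 5960, at least 38.0-fold lower in VFLP (au), taking 3 reads over the group in place of 0, and 38.3-fold lower in Col1 with an interval of 12.7 to 189. The Col1 call was lost without Col1 animal 3 (0.0524). With a batch term the fitted log2 values, which depend on the prior count, were -0.44 in VFLP (man), -1.97 in VFLP (au) and 1.07 in Col1, none of them called.

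Short-chain network chains, which form hexagonal lattices, split within the class. COL8A1 had 156, 152 and 205 CPM in VFLP (man), 103, 67.8 and 101 CPM in VFLP (au), 218, 173 and 166 CPM in Col1, 151, 101 and 128 CPM in injury only and 106, 27.5 and 57.1 CPM in control. It rose in VFLP (man) (1.43 ± 0.37, adjusted p = 0.0102) and Col1 (1.55 ± 0.37, 0.00808), where every animal lay above every control animal, and stood at 0.51 ± 0.37 (0.317) in VFLP (au) and 0.96 ± 0.37 (0.0764) in injury only. COL8A2, the other type VIII chain, had 2.94, 1.90 and 1.32 CPM in VFLP (man), 2.34, 2.36 and 1.32 CPM in VFLP (au), 1.82, 2.77 and 2.02 CPM in Col1, 3.84, 4.60 and 2.49 CPM in injury only and 5.64, 7.67 and 5.71 CPM in control. It fell in VFLP (man) (-1.63 ± 0.36, 0.00397), VFLP (au) (-1.66 ± 0.36, 0.00643) and Col1 (-1.53 ± 0.36, 0.00689), and stood at -0.76 ± 0.35 (0.139) in injury only. In VFLP (man) and Col1 the type VIII partners were therefore called in opposite directions, all 4 calls holding with any 1 animal left out. Right folds alone kept all 4, and a batch term kept none. With left folds alone, COL8A2 in VFLP (man) was still called (-1.43, adjusted p = 0.0238). COL8A1 then stood at 0.90 (0.18) in VFLP (man) and 1.11 (0.1625) in Col1, and COL8A2 at -0.35 (0.595) in Col1, none of them called. COL10A1, a chain of hypertrophic cartilage, rose in VFLP (man) (3.53 ± 1.16, 0.0314) over 0.173 to 1.91 CPM against 0.0571 to 0.0914 CPM in control, on 159 against 7 reads. Without VFLP (man) animal 2 its value was 1.89 (0.193), and the call was also lost without any 1 control animal.

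COL28A1, described in mouse around peripheral nerve Schwann cells, had 1.92, 3.21 and 0.511 CPM in VFLP (man), 1.05, 1.04 and 0.976 CPM in VFLP (au), 0.832, 0.673 and 1.01 CPM in Col1, 5.64, 4.43 and 1.06 CPM in injury only and 0.951, 0.457 and 0.742 CPM in control. It rose in injury only (2.60 ± 0.70, adjusted p = 0.0215), with animals 1 and 2 highest, and the call was lost without control animal 2 or 3 or injury only animal 1 (adjusted p of 0.0590 to 0.0956), the value being 1.92 without injury only animal 1. Schwann cell markers (9 of 10 found) summed to 62.5, 87.4 and 79.6 CPM in injury only and 82.4, 155 and 131 CPM in control, with overlapping ranges, and their part in the COL28A1 value was not tested. COL26A1 had 47 reads in all and was not tested.

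In control animals the right fold was higher than the left in all 3 animals for 18 of the 27 chain genes whose values are given by animal, lower in all 3 for 5, and mixed for 4. COL8A1 had 34.2, 10.03 and 10.5 CPM in the right folds of control animals and 175.5, 36.8 and 89.1 CPM in the left. COL17A1 had 384, 31.7 and 137 CPM in the right folds and 842, 283 and 638 CPM in the left. COL4A1 went the other way, with 177, 397 and 217 CPM in the right folds and 61.9, 251 and 107 CPM in the left. Skeletal muscle markers were also higher on the right, at 90710, 145300 and 94490 CPM against 14670, 88530 and 41740 CPM, and basal squamous markers lower, at 3110, 924 and 1776 CPM against 4619, 2546 and 4555 CPM. The part of these markers in the collagen values was not tested. In VFLP (au) animal 1 the right fold had 196.5 CPM of COL1A1 and the left 62.3 CPM, in VFLP (man) animal 1 the right had 205 CPM and the left 48.8 CPM, and in injury only animal 2 the right had 82.9 CPM and the left 243 CPM. The median absolute log2 difference between folds of an animal was 0.85 for COL1A1 and 0.51 for COL4A1, against a median SD between animals of a group of 0.58 and 0.29 (log2 of CPM plus 0.5).

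**Figure D5:**
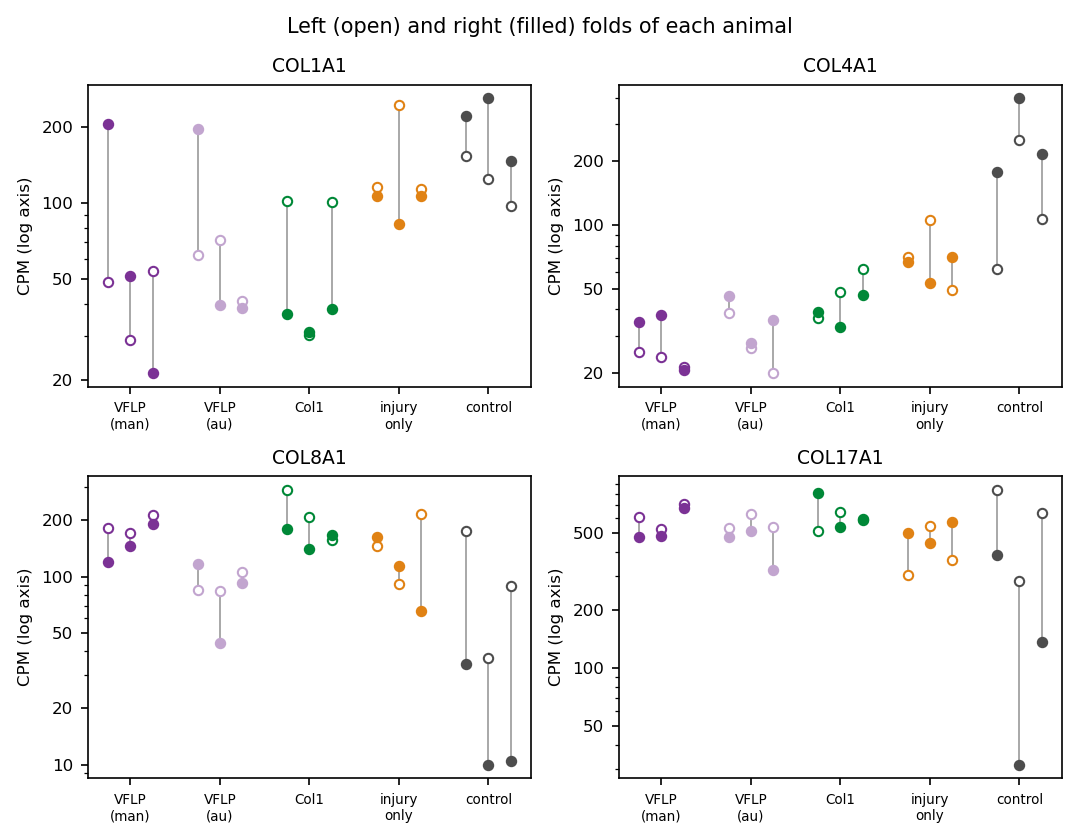
CPM (log axis) of COL1A1, COL4A1, COL8A1 and COL17A1 in the left (open) and right (filled) fold of each animal, by group, with a line joining the folds of an animal. In control animals the filled points lie above the open ones for COL1A1 and COL4A1 and below them for COL8A1 and COL17A1, while the single high COL1A1 folds of VFLP (man) and VFLP (au) animal 1 reach 205 and 196.5 CPM.

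As a share of all gene reads, the 43 chain genes together took 0.217% ± 0.0161 in VFLP (man), 0.182% ± 0.0299 in VFLP (au), 0.193% ± 0.0282 in Col1, 0.209% ± 0.0251 in injury only and 0.197% ± 0.0672 in control (SD, n = 3 animals). The control animals ranged from 0.149% to 0.274% and the ranges of all other groups lay within that span. Without the muscle marker reads and the 37 entries known by locus tag alone, the shares were 0.223% ± 0.0197 in VFLP (man), 0.189% ± 0.0304 in VFLP (au), 0.202% ± 0.0288 in Col1, 0.224% ± 0.0355 in injury only and 0.2498% ± 0.0594 in control, which moved control from the middle to the highest mean. These shares were not tested. Fibrillar chains took 0.0466% ± 0.0189 in VFLP (man), 0.0518% ± 0.0231 in VFLP (au), 0.0332% ± 0.0126 in Col1, 0.0691% ± 0.0178 in injury only and 0.0795% ± 0.0308 in control. Beaded filament chains took 0.00397% ± 0.00116, 0.00491% ± 0.00152 and 0.0034% ± 0.0014 in VFLP (man), VFLP (au) and Col1, against 0.00768% ± 0.00182 in injury only and 0.0116% ± 0.00192 in control. Transmembrane chains, nearly all of them COL17A1 reads, took 0.0674% ± 0.0109, 0.0558% ± 0.00758 and 0.0664% ± 0.00839 in the same material groups, against 0.0488% ± 0.00392 in injury only and 0.0356% ± 0.0219 in control. The denominators of these class shares hold the muscle reads and the 37 locus tag entries, which took up to 29.0% of gene reads in control libraries and up to 9.77% in the others.

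Genes that make, process and bind collagen were followed beside the chains. Of 41 tested of 46 listed, 1 rose and 20 fell in VFLP (man), 3 rose and 15 fell in VFLP (au), 7 rose and 17 fell in Col1 and 1 rose and 8 fell in injury only, all against control. Of all genes, 16.7%, 10.8%, 13.5% and 8.33% were higher and 20.5%, 16.7%, 18.6% and 13.7% lower in these comparisons. The count that fell in injury only and the count that rose in Col1 are near those shares. Median log2 fold changes of the list were -0.83, -0.57, -0.67 and -0.26, against 0.13, 0.11, 0.12 and 0.02 over all genes. TMEM38B, an endoplasmic reticulum channel needed for collagen synthesis, fell in VFLP (man) (-3.08 ± 0.42, adjusted p = 0.000201), VFLP (au) (-2.04 ± 0.40, 0.00414), Col1 (-2.86 ± 0.42, 0.000612) and injury only (-1.80 ± 0.38, 0.00734). SEC23A, a coat protein of procollagen export, fell in VFLP (man) (-0.83 ± 0.17, 0.00258), VFLP (au) (-0.77 ± 0.17, 0.00714), Col1 (-0.91 ± 0.17, 0.00212) and injury only (-0.95 ± 0.17, 0.00399). P4HA1, a catalytic subunit of the prolyl hydroxylase that stabilises the helix, fell in VFLP (man) (-0.85 ± 0.15, 0.00105), VFLP (au) (-0.90 ± 0.15, 0.00205) and Col1 (-0.70 ± 0.15, 0.00434) and stood at -0.15 ± 0.15 (0.524) in injury only. P4HA2, the alternative subunit, fell in VFLP (man) (-1.05 ± 0.19, 0.00135), VFLP (au) (-0.77 ± 0.19, 0.0122), Col1 (-0.75 ± 0.19, 0.0109) and injury only (-0.60 ± 0.19, 0.0427). The 14 hydroxylation and glycosylation genes did not fall as a set. Of these, 0 rose and 4 fell in VFLP (man), 1 and 2 in VFLP (au), 3 and 2 in Col1 and 0 and 1 in injury only. Their medians were -0.07, 0.06, 0.20 and -0.01. COLGALT1, P3H4 and P4HB rose in Col1, and COLGALT1 rose in VFLP (au). The shares of all genes given above stand beside the counts of this set too. FKBP14, a procollagen chaperone, fell in VFLP (man) (-1.31 ± 0.28, 0.00350), VFLP (au) (-0.92 ± 0.28, 0.0290), Col1 (-1.28 ± 0.28, 0.00498) and injury only (-0.96 ± 0.29, 0.0328). PCOLCE2, an enhancer of propeptide cleavage, fell in VFLP (man) (-2.99 ± 0.59, 0.00210) and injury only (-1.91 ± 0.57, 0.0314), and stood at -1.21 ± 0.55 (0.121) in VFLP (au) and -1.37 ± 0.56 (0.0775) in Col1.

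The collagen receptors also divided. ITGA1, the collagen-binding integrin subunit of muscle, endothelium and fibroblasts, fell in VFLP (man) (-1.96 ± 0.34, adjusted p = 0.000911), VFLP (au) (-2.63 ± 0.35, 0.000871), Col1 (-1.93 ± 0.34, 0.00151) and injury only (-1.42 ± 0.34, 0.0130). MRC2, the endocytic receptor that takes up collagen fragments, fell in VFLP (man) (-1.68 ± 0.24, 0.000266), VFLP (au) (-1.17 ± 0.24, 0.00477), Col1 (-1.40 ± 0.24, 0.00130) and injury only (-0.71 ± 0.24, 0.0477). DDR1, the collagen receptor kinase of epithelia, rose in VFLP (man) (0.99 ± 0.19, 0.00168), VFLP (au) (0.94 ± 0.19, 0.00462), Col1 (1.09 ± 0.19, 0.00144) and injury only (0.83 ± 0.19, 0.0108), and was the 1 gene of the list that rose in VFLP (man) and in injury only. Of the 20 muscle markers, 19, 16, 18 and 12 fell against control in VFLP (man), VFLP (au), Col1 and injury only, and of the 12 fibroblast markers 12, 9, 11 and 6 fell. Lower calls took 20.5%, 16.7%, 18.6% and 13.7% of all genes there. The part of both marker lists in the pathway values was not tested.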

How the data were processed

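mRNA of 30 libraries was read as gene counts, which the authors deposited as unnormalized reads per gene for each library. Alignment used STAR 2.7.10b, per the submitters' processing notes, while for the build and for the annotation the entry is the same: not given in the sources used here. The deposited counts of the strand-matched column (column 4) were used. Of the listed reads, 23.2% to 44.7% lay in rows that name no gene and were left out of totals and tests. Library totals of 14166322 to 31933788 gene reads limit the precision of genes with few reads, and counting intervals cover counting error only.

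The folds of an animal were summed, so the 15 animals, labelled as separate rabbits, are the replicates, but for injury only animal 1 in fits with a batch term. Genes passing filterByExpr (minimum count 10) were tested with edgeR 4.0.16 quasi-likelihood F tests over all 5 groups, with TMM scaling, in R 4.3.3, and p-values were adjusted over all tested genes by Benjamini-Hochberg, with a threshold of 0.05. Comparisons of injury only with control and of 2 materials carried a batch term with the folds of injury only animal 1 kept apart (16 units), and the others carried none. With that term the right fold of this animal, in batch D, carries no weight in injury only against control. The script was tested on simulated data. DESeq2 1.42.0 and limma 3.58.1 (voom), other scalings, no filter, each animal left out, each side alone and a batch term or its absence were alternatives. Ratios and figures used Python 3.11.15 with pandas 2.3.3, scipy 1.17.1, numpy 2.4.6 and matplotlib 3.10.9.

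The members, the class, pathway and marker lists and the alternatives were chosen with earlier results of these data known. Values of every animal are given for 15 preset chains and the 12 others of smallest adjusted p in the 5-group test, and pathway genes are named where among the 6 of smallest p in a comparison. All 43 symbols matched RefSeq; no sequences were used here. Replicate numbers did not pair animals across groups.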

Additional observations from a re-analysis of the deposited data

Results flagged for a closer look

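In groups of 6 libraries, a library was singled out where its gap to the nearest other exceeded 0.625 of the group's range. This met 21 of 185 groups tested. The cutoff gives about 1 in 20 by chance for 6 independent, normally spread values. Here the libraries are paired folds and the chains are related, so the count is not read against that rate. No explanation was tested for any of them.

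Most came from 3 folds. The right fold of VFLP (man) animal 1 had 205.3 CPM of COL1A1, with the next library of its group at 54.1 CPM, and 9.91 CPM of COL5A3, next to 1.42 CPM. The right fold of VFLP (au) animal 1 was highest for COL1A1 (196.5 CPM, next 71.4), COL1A2 (293.2 CPM, next 148.4), COL6A2 (42.88 CPM, next 23.2), the beaded filament share of gene reads (0.00917%, next 0.00495%) and the fibrillar share (0.114%, next 0.0585%). The left fold of injury only animal 2 was highest for COL1A1 (243.2 CPM, next 115), COL1A2 (377.1 CPM, next 192), COL2A1 (1.94 CPM, next 0.494), COL6A1 (43.57 CPM, next 25.0), COL6A2 (68.52 CPM, next 30.9), COL16A1 (17.61 CPM, next 9.24), the share of all collagen chains (0.285%, next 0.209%) and the beaded filament share (0.0140%, next 0.00782%).

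The others stood alone. COL18A1 was lowest in the left fold of Col1 animal 1 (22.7 CPM, next 36.7), where COL9A3 was highest (0.216 CPM, next 0.0976). COL20A1 was seen in 1 library of VFLP (man), the left fold of animal 2 (0.0343 CPM), and COL22A1 was highest in the right fold of the same animal (10.19 CPM, next 2.76). COL11A2 was highest in the right fold of VFLP (au) animal 3 (0.924 CPM, next 0.382), and the share of all collagen chains in the left fold of VFLP (man) animal 3 (0.256%, next 0.217%).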

How the results depend on the processing

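Counts of called chain genes were 20, 16 and 22 in VFLP (man), VFLP (au) and Col1 against control, 7 in injury only against control, 1 in VFLP (man) against injury only and 19 over the 5 groups. With a batch term they were 1, 0 and 0 in the 3 materials against control, 0 in VFLP (man) against injury only and 2 over the 5 groups, and 4 called values changed sign: COL6A6 (0.74) and COL9A3 (0.66) in VFLP (au), COL6A6 (0.42) and COL20A1 (1.07) in Col1, all against control. Over the 5 groups 1535 of all 17815 genes were called with that term. With left folds alone the counts were 7 in VFLP (au), 0 in Col1 and 0 in injury only against control, 8 in VFLP (man) against injury only, 1 in VFLP (man) against Col1 and 11 over the 5 groups. With right folds alone they were 13 in injury only against control, a fit with a batch term, and 0 in VFLP (man) against injury only. DESeq2 called 13 in injury only against control, and 8, 1 and 4 in VFLP (man), VFLP (au) and Col1 against injury only. Of all genes DESeq2 called 5488 of 17776 in injury only against control. In VFLP (man), VFLP (au) and Col1 against injury only it called 1249, 211 and 380 of 17719. limma voom on the 30 libraries called 3 in injury only against control and 0 in VFLP (man) against injury only, and fits of only the 2 groups compared called 2 and 0 there. Of all 16475 genes that limma voom tested, it called 2994 and 11 in these comparisons. Without the injury only library of batch D, VFLP (man) against injury only had 4. Leaving out each animal in turn gave 17 to 22, 9 to 17 and 17 to 24 in VFLP (man), VFLP (au) and Col1 against control, 3 to 7 in injury only against control, 0 to 1 in VFLP (man) against injury only and 14 to 22 over the 5 groups. Of the calls, 15 of 20, 9 of 16, 15 of 22 and 2 of 7 against control held in every such fit. Batch and left-out animals reduce what a fit can separate, and other causes were not tested. Same-numbered animals of different groups correlated at a median r of -0.02 (-0.50 to 0.36, 30 pairs), and 4 of 15 animals correlated best with their own number, so the numbers do not pair animals. A replicate block gave 20, 15 and 21 in the materials against control, 8 in injury only against control, 1 in VFLP (man) against injury only and 16 over the 5 groups. Counts over all genes are not given here for the side, 2-group, left-out and block fits. Chains with few reads, such as COL20A1 and COL9A1, are limited by depth.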

Other observations

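Other marker lists were measured in the same animals. Markers of secretory epithelium and glands (11 of 12 found) summed to 2149, 4346 and 3136 CPM in VFLP (man), 2742, 2119 and 9957 CPM in VFLP (au), 6722, 14090 and 3077 CPM in Col1, 22820, 14060 and 24490 CPM in injury only and 5336, 929.9 and 5286 CPM in control. Against control 3, 1, 4 and 6 of 11 rose in VFLP (man), VFLP (au), Col1 and injury only, and 0 fell, with 16.7%, 10.8%, 13.5% and 8.33% of all genes higher. Leukocyte markers (10 of 12 found) summed to 231 to 304 CPM in VFLP (man), 119.6 to 223 CPM in VFLP (au), 131 to 242 CPM in Col1, 226 to 298 CPM in injury only and 95.2 to 116 CPM in control, with 3, 2, 2 and 3 of 10 rising against control and 0 falling. The same shares of all genes stand beside these counts.

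Adipocyte markers (6 of 8 found) summed to 15.5 to 29.4 CPM in VFLP (man), 39.5 to 121 CPM in VFLP (au), 49.96 to 69.6 CPM in Col1, 79.4 to 197 CPM in injury only and 343 to 1793 CPM in control, and 4, 4, 4 and 2 of 4 tested fell against control. Of all genes 20.5%, 16.7%, 18.6% and 13.7% fell there. CIDEC, a lipid droplet protein of adipocytes, had 0 reads in all 30 libraries. Smooth muscle and pericyte markers (10 of 10 found) summed to 180 to 464.5 CPM in VFLP (man), 510.1 to 868 CPM in VFLP (au), 439 to 1194 CPM in Col1, 726 to 1291 CPM in injury only and 1948 to 4434 CPM in control. Against control 7, 5, 4 and 3 of these 10 fell in VFLP (man), VFLP (au), Col1 and injury only, and 1, 0, 1 and 0 rose. Their median log2 fold changes were -1.86, -1.25, 0.13 and 0.04, so in Col1 and injury only the lower sums do not stand for most markers. Differentiated squamous markers (12 of 12 found) summed to 18560 to 35590 CPM in VFLP (man), 21220 to 32040 CPM in VFLP (au), 24910 to 34210 CPM in Col1, 16810 to 20210 CPM in injury only and 11810 to 22380 CPM in control, with 0, 0, 1 and 0 of 12 rising against control and 0 falling.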
